A study of Mus musculus with 8 samples.

Results

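ATAC-seq maps open chromatin by letting a transposase cut and tag DNA that nucleosomes leave accessible, and the regions it marks here are 45779 intervals that all 4 ATAC libraries of the study called as peaks. They are 40.7% of the 112479 regions found when the peak lists were merged wherever intervals shared at least 1 bp. The cells were LSK cells (Lin-Sca1+cKit+), sorted by flow cytometry from the bone marrow of C57BL/6 mice. The mice were WT or carried a conditional KO of Hira, with 2 libraries for each genotype in ATAC-seq and 2 in RNA-seq. The promoter that drives the deletion, the age of the mice, any agent given to them and whether each library came from its own mouse are not given in the sources used here, so the p-values below measure only the spread between these libraries, which may be technical.

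The LSK gate holds the haematopoietic stem cells and the multipotent progenitors that give rise to the lymphoid, erythroid and myeloid lineages. HIRA is a histone chaperone that places the histone variant H3.3 into chromatin outside DNA replication, at active promoters and enhancers and along transcribed genes. Open chromatin at promoters of widely used genes is strong and shared by most cell types, whereas distal sites are weaker and mark lineage programmes.

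The names of the deposited peak and RNA tables, and the peak names inside the ATAC lists, give each library the genotype opposite to its sample title. Hira RNA was 16.5 and 17.2 CPM (read counts put on one scale for library size) in the libraries labelled WT and 24.4 and 23.3 CPM in those labelled Hira KO, a log2 difference of 0.50 (SE 0.19) with an edgeR adjusted p of 0.180. The text therefore keeps the word labelled with each genotype. If the titles were the wrong ones, each direction below would turn around. Kit, which defines the gate, had a shared region over its promoter at percentiles 82.0 and 83.0 in labelled WT against 83.2 and 80.4 in labelled Hira KO.

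Each region was given its percentile rank, within each library, of the highest fold enrichment the authors' peak caller wrote for it, so that 0 is the weakest and 100 the strongest of the 45779 regions in that library. A region is called higher here when both labelled Hira KO percentiles lay above both labelled WT percentiles and the group means differed by at least 20, and lower in the mirror case. By this rule 3861 regions (8.43%) were higher and 3368 (7.36%) lower in labelled Hira KO. These counts are a description of the regions the rule chose and carry no test.

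The promoter windows of 4 named genes show the sequence under such regions. The windows run from 250 bases before to 50 bases after a gene start (RefSeq, GRCm38.p6) and are written from 5′ to 3′ on the gene's own strand, in lower case. Capitals mark matches, on either strand, to short motifs of factor families: GATAA for the GATA factors of stem and erythroid cells, GGAAG for the ETS factors, TGTGGT for the RUNX factors, TGACTCA for AP-1 and CCAAT for the general promoter factor NF-Y. The others were CACCC for the KLF factors, CAGCTG for E-box binding factors of the lymphoid and erythroid lineages, CACGTG for E-box binding factors of the MYC type, and TATAAA, the TATA box. None of these 9 is contained in another. The first 3 windows lay under higher regions: Gpr132, a lipid-activated receptor of lymphoid and myeloid cells (chr12:112860867-112861166, minus strand), Ctla2b, a small secreted protease inhibitor (chr13:60897398-60897697, minus strand), and H2-Aa, a chain of MHC class II (chr17:34287774-34288073, minus strand). The window of Tjp1, a tight-junction scaffold (chr7:65371195-65371494, minus strand), lay under a lower region.
Gpr132: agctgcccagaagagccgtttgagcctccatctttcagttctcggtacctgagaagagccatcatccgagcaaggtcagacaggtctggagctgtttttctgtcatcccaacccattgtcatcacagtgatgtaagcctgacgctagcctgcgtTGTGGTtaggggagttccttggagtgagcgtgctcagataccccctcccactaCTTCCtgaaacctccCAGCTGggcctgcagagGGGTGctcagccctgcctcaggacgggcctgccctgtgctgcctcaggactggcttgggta
Ctla2b: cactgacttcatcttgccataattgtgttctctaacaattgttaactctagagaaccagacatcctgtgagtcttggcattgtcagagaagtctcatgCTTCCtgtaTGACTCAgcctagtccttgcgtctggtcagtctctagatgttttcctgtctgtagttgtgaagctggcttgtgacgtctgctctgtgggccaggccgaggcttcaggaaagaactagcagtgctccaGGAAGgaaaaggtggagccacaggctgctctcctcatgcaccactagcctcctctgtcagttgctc
H2-Aa: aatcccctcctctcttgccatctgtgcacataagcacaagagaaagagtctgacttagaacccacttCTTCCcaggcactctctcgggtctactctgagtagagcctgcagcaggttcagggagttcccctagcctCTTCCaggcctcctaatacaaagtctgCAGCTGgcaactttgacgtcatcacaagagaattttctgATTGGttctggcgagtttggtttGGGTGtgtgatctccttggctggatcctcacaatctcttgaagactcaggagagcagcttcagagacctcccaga
Tjp1: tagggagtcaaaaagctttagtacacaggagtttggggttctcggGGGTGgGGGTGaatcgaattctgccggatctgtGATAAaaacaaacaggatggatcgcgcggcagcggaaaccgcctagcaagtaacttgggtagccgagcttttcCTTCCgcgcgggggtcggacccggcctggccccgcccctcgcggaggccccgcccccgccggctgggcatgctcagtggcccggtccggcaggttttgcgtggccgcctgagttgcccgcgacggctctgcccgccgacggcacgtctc
The Gpr132 window had a CpG ratio (observed over expected CpG) of 0.281, Ctla2b 0.160, H2-Aa 0.158 and Tjp1 0.972. The 3 windows under higher regions were thus poor in CpG and the Tjp1 window rich.

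Few promoter regions met the rule, and the windows under those that did were mostly poor in CpG. Of 8493 shared regions over a promoter window 265 (3.12%) were higher and 69 (0.812%) lower, against 1951 (9.01%) and 1960 (9.05%) of 21647 regions that overlapped a gene body but no such window. Regions farther than 10 kb from a named gene were higher in 1128 of 9364 cases (12.05%) and lower in 804 (8.59%). The median CpG ratio was 0.778 over the 12749 windows under any shared region, 0.399 over the 398 windows under a higher region and 0.378 over the 127 under a lower one. The rule depends on rank and cannot choose the strongest regions. With all shared regions split by mean percentile into 10 groups, the top groups, 9 and 10, had 0 higher and 0 lower. These shares and ratios are not matched for rank, and its part in them was not tested.

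Motif shares were counted over the same windows. GGAAG, the core recognised by ETS factors such as PU.1, was in 80.7% of windows under a higher region, 76.1% of those under any shared region and 71.4% of all 32851 windows. TGACTCA, the AP-1 motif, was in 7.54%, 3.38% and 5.20% of the same sets, TGTGGT (RUNX) in 18.6%, 12.3% and 16.8%, and GATAA (GATA) in 21.6%, 16.0% and 25.4%. CCAAT, a general promoter motif, was in 28.1%, 38.4% and 37.4%, CACCC in 60.6%, 63.6% and 57.5%, and CAGCTG in 19.6%, 14.2% and 16.3%. CACGTG was in 7.54%, 10.6% and 7.15%, and TATAAA in 7.79%, 6.07% and 13.6%. Of the windows under a lower region GATAA was in 29.1%, GGAAG in 69.3%, TGTGGT in 20.5%, TGACTCA in 7.87%, CCAAT in 27.6%, CACCC in 64.6%, CAGCTG in 14.2%, CACGTG in 5.51% and TATAAA in 8.66%. The shares of the AP-1 and RUNX motifs were thus no smaller under lower than under higher regions. A match is only a string of letters in the window, and base composition moved with these shares (median GC 55.5%, 61.3% and 52.7%); its part in them was not tested.

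The libraries did not group by label alone. Across the shared regions the percentiles of the 2 labelled WT libraries had a Pearson correlation of 0.896 and those of the 2 labelled Hira KO libraries 0.853, while labelled Hira KO replicate 2 correlated at 0.868 with labelled WT replicate 2. Labelled Hira KO replicate 1 stood farthest from the rest, at 0.789 and 0.772 with the labelled WT libraries. The number of unique intervals ran from 63422 to 92839 per library and the median called width from 435 to 527 bp, and neither separated the groups (exact permutation p = 0.667 and 1, 2-sided, where 2 libraries against 2 cannot go below 0.333).

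The test at each region made no call. limma, fitted on normal scores of the percentiles over all 45779 regions, called 0 regions higher and 0 lower at a Benjamini-Hochberg adjusted p below 0.05, with a lowest adjusted p of 0.285. On simulated data with these libraries' spread the same fit did not call the shifts that had been put in, so its 0 calls do not show that ranks were alike. At an unadjusted p below 0.05 limma had 3054 regions higher (6.67%) and 2861 lower (6.25%). Percentile pairs that did not overlap, whatever their distance, were found at 23.8% of regions in the higher direction and 23.1% in the lower.

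Higher regions had median percentiles of 16.3 and 20.9 in labelled WT against 54.7 and 48.6 in labelled Hira KO, and lower regions 52.5 and 51.5 against 17.6 and 21.9. The rule leaves little room for regions near either end of the ranking, where percentiles cannot go past 0 or 100. A mean difference of at least 40 was reached by 329 higher and 294 lower regions. Just inside the threshold of 20 lay regions in Txnip and Ggta1 (lower) and in St8sia4 and Hmcn2 (higher), and just outside it regions in Dennd1a and Nme9 (lower) and in Mtus2 (higher).

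Among the lower regions with the largest differences several lay at the 3′ ends of genes. The region with the largest difference began 388 bp past the 3′ end of Ran, the GTPase that drives nuclear transport (chr5:129024710-129026084). Its percentile was 67.5 and 81.4 in labelled WT against 0.615 and 0.434 in labelled Hira KO. Its fold enrichment was 21.0 and 30.5 against 3.03 and 3.43. The region thus went from the upper part of the ranking to its lowest hundredth, and the groups lay far apart.

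Some of the next regions covered the 3′ ends of other genes. At Nop56, a core protein of the small nucleolar particles that modify ribosomal RNA (chr2:130277985-130282431), the percentiles were 74.3 and 83.5 against 7.29 and 6.49. At Denn2b (chr7:109522252-109527203), whose 3′ end faces that of the ribosomal protein gene Rpl27a, they were 64.6 and 78.2 against 1.23 and 2.496. At Trim41 (chr11:48804597-48808191), whose 3′ end faces that of Rack1, a scaffold protein of the small ribosomal subunit, they were 67.9 and 76.7 against 1.23 and 8.95. In all 3 the groups lay far apart, and the region covered an annotated 3′ end of a gene of ribosome biology or the facing 3′ ends. Not all such regions were at genes of this kind. The region over the 3′ end of Tymp (chr15:89370758-89372712), with that of Sco2 in it or facing it, had 67.5 and 75.9 against 0.615 and 4.29.

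Among them were also 2 erythroid genes. Aqp1, the red-cell water channel (chr6:55346029-55350328, over the 3′ end), had percentiles of 72.6 and 70.2 in labelled WT against 11.6 and 4.29 in labelled Hira KO. Car2, the carbonic anhydrase of erythroid cells (chr3:14900639-14907961, from within the gene past its high-coordinate end), had 67.5 and 74.0 against 2.12 and 4.29. Of the 12 autosomal lower regions with the largest difference and a named protein-coding gene within 10 kb, 5 covered the 3′ end of that gene and 2 lay within 2 kb past it. Ptpre and Ublcp1 had theirs inside the gene over neither end, Agap2 before its start, and Car2 and Tram1 had no strand in the table used. Of the 12 higher regions chosen likewise 0 lay at a 3′ end.

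Without the condition of a named gene, 3 of the 12 largest lower differences lay farther than 10 kb from one, and 5 were then over a 3′ end and 1 within 2 kb past one. At chr7:119270819-119271784 the percentiles were 78.6 and 71.4 in labelled WT against 7.29 and 0.0972 in labelled Hira KO. At chr14:115047040-115049975 they were 78.0 and 81.6 against 17.6 and 6.49, and at chr1:82825138-82825813 they were 75.8 and 68.2 against 0.615 and 11.5. Large differences were thus also found away from named genes. Of the 12 largest higher differences 2 lay farther than 10 kb from a named gene.

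**Figure D1:**
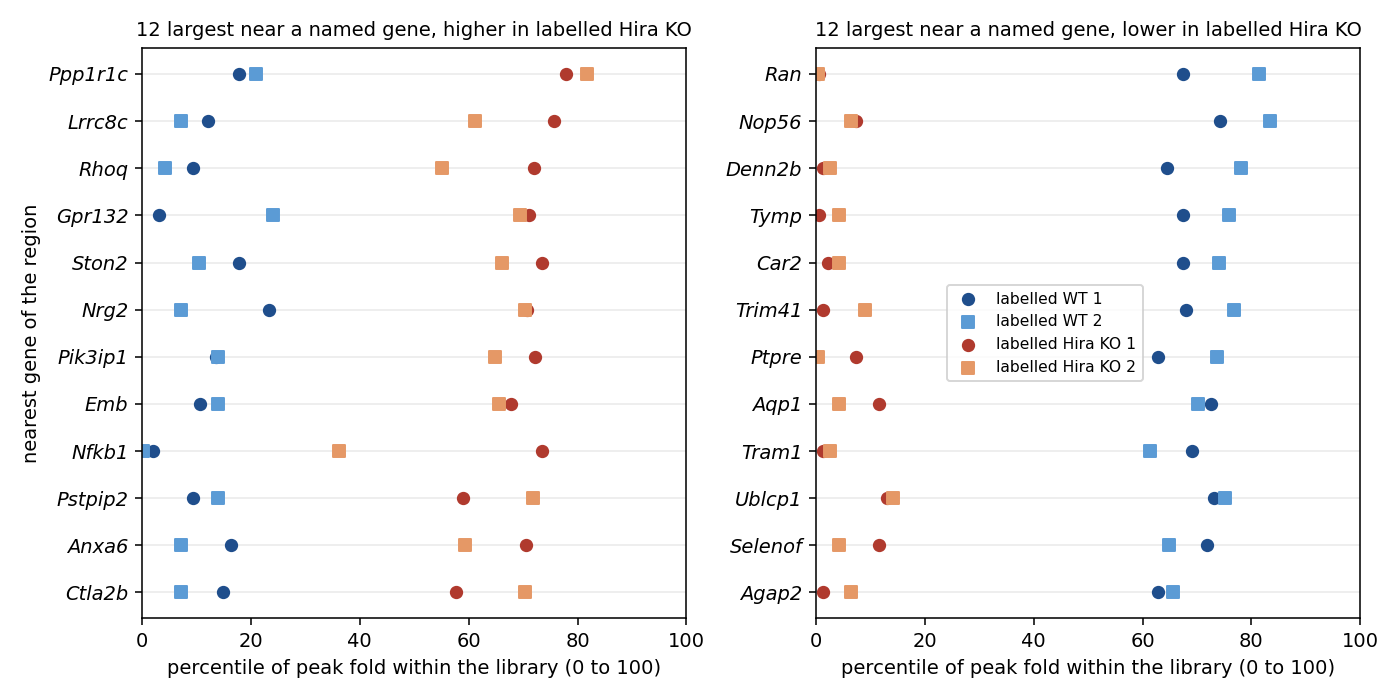
Percentile of the peak fold within each library (horizontal axis, 0 to 100) for the 12 autosomal regions with the largest mean difference in each direction among those within 10 kb of a named protein-coding gene (rows, named by nearest gene), with 1 point for each of the 4 libraries. Labelled WT and labelled Hira KO points do not overlap in any row, as the rule requires, and the widest gap is at Ran.

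Because these places were noticed in the values, positions of all regions against gene ends were then counted, as a description. The nearest gene's strand was known for 20919 shared regions outside promoter windows. Of the 280 that covered the gene's 3′ end 49 (17.5%) were lower and 11 (3.93%) higher. Of the 15347 inside a gene but over neither end 1516 (9.88%) were lower and 1455 (9.48%) higher, near the shares over all shared regions. Without each ATAC library in turn the 3′ end regions counted 46 to 58 lower and 14 to 21 higher, and the regions inside genes 1514 to 2759 lower, the most without labelled Hira KO replicate 2.

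Width and RNA level moved with the count. Of 59 regions over a 3′ end with a merged width of at least 2000 bp 20 (33.9%) were lower and 0 higher, and 8 of 27 such regions within 2 kb past a 3′ end were lower. Over all widths the regions within 2 kb past a 3′ end had 83 lower of 851 (9.75%) and 69 higher (8.11%), near the shares inside genes, and those within 2 kb before a start had 82 lower of 748 (11.0%) and 61 higher (8.16%). Inside genes, over neither end, the same width gave 14 lower of 221 (6.33%) and 1 higher. Where the gene's mean RNA was at least 150 CPM 10 of 22 regions over a 3′ end (45.5%) were lower, against 20 of 119 (16.8%) from 10 to below 150 CPM and 13 of 81 (16.0%) below 10 CPM. Wide regions over a 3′ end had median percentiles of 76.0 and 78.4 in labelled WT, with less room to rise than to fall. The part of width, rank or RNA level in the shift was not tested.

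**Figure D2:**
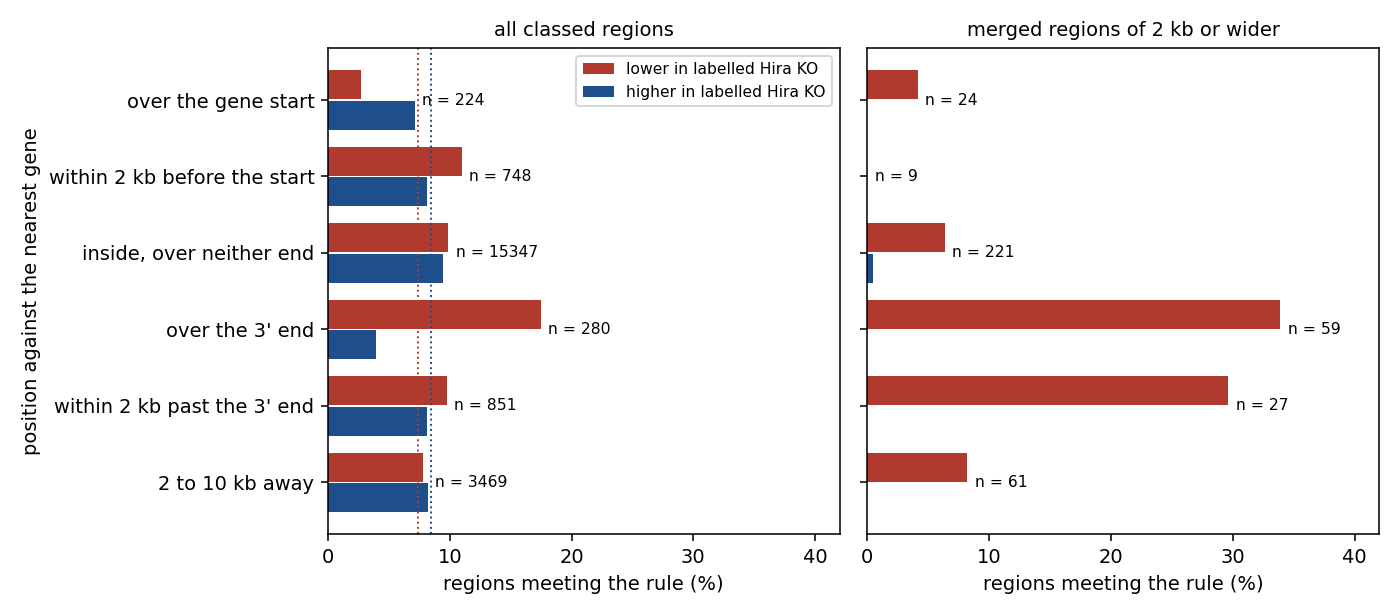
Share of shared regions meeting the rule (horizontal axis, percent; lower in red, higher in blue) by position against the nearest gene, for all classed regions (left, with the shares over all shared regions dotted) and for merged regions of 2000 bp or more (right); n is the number of regions. Regions over a 3′ end were lower in 17.5% of cases, and in 33.9% when wide.

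Some of the 49 lower regions over a 3′ end are given here as examples, picked after their values were seen. The percentiles were 76.4 and 77.6 against 25.1 and 31.8 at Hnrnpa1 (chr15:103244845-103249833) and 53.1 and 62.1 against 16.1 and 6.49 at Hnrnpa3 (chr2:75667536-75672058), both encoding packaging proteins of nuclear RNA. At Eef1a1, the elongation factor that brings tRNA to the ribosome (chr9:78473297-78479385), they were 82.2 and 89.5 against 53.3 and 66.1. At Rps15a, of the small ribosomal subunit (chr7:118102205-118107206), they were 82.8 and 88.3 against 53.3 and 59.4. In 17 of the 49 another gene's 3′ end lay in the region or faced it within 2 kb, such as Eif4a2 at Rfc4, Rps3 at Klhl35 and Eef1b2 at Gpr1.

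Ribosomal protein genes were counted as a family by symbol, also after the values had been seen. Their 153 shared regions held 19 lower (12.4%) and 2 higher (1.31%), beside 7.36% and 8.43% of all shared regions. Their median percentile difference was 0.306. Of 20 such regions that were at least 2000 bp wide and off the promoter window 9 were lower and 0 higher, and 19 were narrower in both labelled Hira KO libraries, with 0 wider. Leaving out each ATAC library gave 7 to 10 lower and 0 higher. Over all genes 70 of 989 regions of that kind (7.08%) were lower, and 492 were narrower. The trait was not particular to ribosomal protein genes. Regions of that kind were lower in 4 of 10 cases at heat shock protein genes and in 3 of 4 at hnRNP and SR splicing factor genes. At translation factor genes 2 of 6 were lower, and 0 were higher in each of these families.

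RNA of these genes did not pass the test. Of the 49 lower regions over a 3′ end 43 had a gene tested for RNA, with 0 called higher and 0 lower by edgeR and a median log2 difference of -0.20, beside 1.8% of all genes called in either direction. The single values went in different directions: Nop56 had 191 and 211 CPM in labelled WT against 133 and 139 (log2 -0.56, SE 0.14, edgeR adjusted p = 0.0789), while Rps15a was at log2 0.50 (SE 0.17, edgeR adjusted p = 0.140). Ran, just past whose end the largest difference lay, had 180 and 170 CPM in labelled WT against 115 and 109 in labelled Hira KO (log2 -0.64, SE 0.14, edgeR adjusted p = 0.0631).

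Called width, the length a library's own peaks cover inside the merged region, was smaller at these places too. At Denn2b it was 4395 and 4952 bp in labelled WT against 200 and 207 bp in labelled Hira KO, a width 0.0431 times as large after each library was centred on its median. At Nop56 it was 4263 and 4353 bp against 625 and 619 bp. At Car2 it was 7323 and 6225 bp against 510 and 760 bp. In each case a domain of several kilobases was called as peaks of well under 1 kb.

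**Figure D3:**
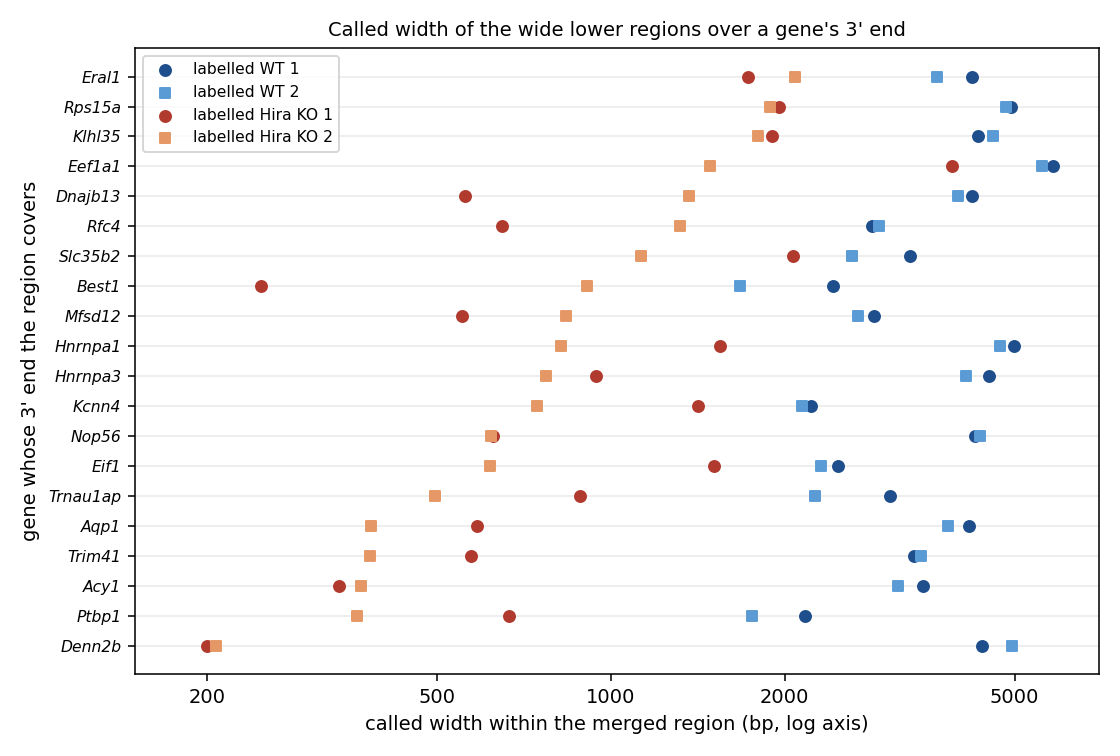
Called width (bp, log axis) in each of the 4 libraries for the 20 lower regions of at least 2000 bp merged width over a gene's 3′ end (rows, named by gene). In every row both labelled Hira KO libraries are narrower than both labelled WT libraries, with Denn2b at 200 and 207 bp.

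Over all shared regions width pairs that did not overlap were about as common in both directions, 9052 wider (19.8%) and 9917 narrower (21.7%). limma on centred log2 widths called 0 regions wider and 0 narrower at an adjusted p below 0.05, with 2650 wider (5.79%) and 2596 narrower (5.67%) at an unadjusted p below 0.05. The lowest adjusted p was 0.0633. The limma fit without labelled Hira KO replicate 2 called 52 wider and 142 narrower, and that without labelled Hira KO replicate 1 called 4 and 85; the single labelled Hira KO library left in each is assumed to vary like the labelled WT pair.

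Regions nearest the limma threshold for width were mostly narrower. Of 21 regions with an adjusted p below 0.1 in the width fit 20 were narrower and 1 wider. The narrower ones held 7 over a 3′ end (Denn2b, Acy1, Nop56, Aqp1, Hnrnpa3, Rps10 and Trim41) and 2 within 2 kb past one (Ran and Rpl37a). Of the other 11, 4 were inside a gene, 1 was 2 to 10 kb away and 6 were not classed. Ncl, which encodes nucleolin, the main protein of the nucleolus, was narrower inside the gene, at 2861 and 3279 bp against 237 and 233 bp. The 1 wider region, inside Mark2, a kinase of cell polarity, had 200 and 200 bp in labelled WT against 915 and 849 bp in labelled Hira KO, while its percentiles were low in all 4 libraries, between 0.348 and 16.7.

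Rank and width moved together among shifted regions. Of the 3861 higher regions 2840 (73.6%) were wider in both labelled Hira KO libraries and 22 narrower, and of the 3368 lower ones 2114 (62.8%) were narrower and 26 wider. Merged regions of at least 2000 bp were lower in 81 of 2459 cases (3.29%) and higher in 3 (0.122%), at Stk24, Rgs10 and Inpp5d. Both shares were below those over all shared regions (7.36% and 8.43%). The median percentiles of these wide regions were 91.1 and 90.6 in labelled WT, so most had no room to rise by 20 but could fall. Of the 192 regions of at least 4000 bp 25 were lower and 0 higher. Asking every library to cover at least 50% of the merged region drops regions whose called width differs strongly between libraries. The higher count then went from 3861 to 2574 and the lower count from 3368 to 2150.

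The largest higher difference lay in Ppp1r1c, a regulator of protein phosphatase (chr2:79762639-79763224), with percentiles of 17.7 and 20.9 in labelled WT against 77.8 and 81.7 in labelled Hira KO. A site in Lrrc8c, a subunit of volume-regulated anion channels (chr5:105557640-105559021), had 12.1 and 7.06 against 75.7 and 61.1. A site in Nfkb1, which encodes an NF-kB subunit (chr3:135628526-135629340), had 2.07 and 0.171 against 73.5 and 36.1. The spread within labelled Hira KO was wide at Nfkb1 and narrow at Ppp1r1c.

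The promoter regions of Gpr132 and Ctla2b, whose sequences stand above, were among the same 12. Gpr132 had 3.02 and 24.1 against 71.1 and 69.4, and Ctla2b 14.9 and 7.06 against 57.6 and 70.4. RNA of Ctla2b was 5.45 and 4.92 CPM in labelled WT against 20.2 and 57.4 in labelled Hira KO (edgeR log2 2.90, SE 0.54, adjusted p = 0.0674), and that of Gpr132 7.94 and 11.6 against 15.2 and 29.5 (edgeR log2 1.19, SE 0.36, adjusted p = 0.125). Both genes had more RNA in the libraries labelled Hira KO, where their promoters ranked higher, and neither passed the test.

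Some genes held several shifted regions. Etv6, an ETS repressor needed by adult stem cells, had 8 higher and 3 lower of 26 shared regions. Trps1 had 6 higher of 10, Rapgef2 6 of 14, and Emb, an immunoglobulin-family membrane protein, 5 of 9, with 0 lower in each of the 3. In the other direction Camta1 had 6 lower of 16, Prkacb, a catalytic subunit of protein kinase A, 6 of 18, and Hjurp, the chaperone of centromeric histone CENP-A, 5 of 10, with 0 higher. Neighbouring sites of 1 gene share a locus and are not independent.

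Gene lists for blood lineages and cell processes were then read through the shared regions within 10 kb of their members, each beside the 8.43% higher and 7.36% lower of all shared regions. Those shares are not matched for rank, on which the rule depends. With all shared regions split by mean percentile into 10 groups, group 4 from the lowest had 18.7% higher and 15.1% lower. Group 7 had 6.09% and 5.46%, and groups 9 and 10 had 0 of either. The lists differ in rank, and its part in their shares was not tested. Multipotent and lymphoid-primed progenitor genes had 16 of 52 regions higher (30.8%) and 2 lower, with median percentiles of 25.9 and 24.1 in labelled WT against 50.8 and 38.2 in labelled Hira KO. B-lineage genes had 10 of 37 higher (27.0%) and 0 lower. Erythroid genes had 0 of 113 higher and 16 lower (14.2%), with median percentiles of 67.5 and 65.5 against 50.8 and 58.4.

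Among lymphoid-primed genes Satb1, a chromatin organiser of lymphoid progenitors, had 3 of 3 regions higher. Flt3, the receptor of lymphoid-primed progenitors, had 3 of 6, and Ikzf1, the lymphoid factor Ikaros, 5 of 21. The site in Ikzf1 with the largest difference (chr11:11729834-11730843) had percentiles of 24.6 and 17.5 in labelled WT against 76.1 and 57.3 in labelled Hira KO. A site in Cd34, the progenitor sialomucin (chr1:194943490-194944012), had 10.7 and 10.4 against 50.8 and 55.0. RNA rose for 3 of the 15 genes of the list by edgeR and fell for 0. Flt3 rose with a log2 difference of 1.42 (SE 0.21, edgeR adjusted p = 0.0347), from 77.3 and 89.7 to 180 and 267 CPM.

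In the B-lineage list Bach2, a repressor that guides B-cell fate, held 5 of the 10 higher regions, and Vpreb1, Vpreb3, Igll1, Blnk, Bank1 and Irf4 held 1 each, some sites being near 2 of them. At a Bach2 site (chr4:32358513-32359073) the percentiles were 4.09 and 7.06 in labelled WT against 47.1 and 42.04 in labelled Hira KO. Bach2 RNA was 28.8 and 25.4 against 33.2 and 20.3 CPM. Igll1, part of the surrogate light chain, fell in RNA from 62.7 and 56.7 to 27.8 and 23.6 CPM (edgeR log2 -1.21, SE 0.18, adjusted p = 0.0337), opposite to its site. Jchain, the joining chain of secreted antibodies, with 0 shared regions, rose from 13.1 and 7.17 to 192 and 125 CPM (edgeR log2 3.97, SE 0.37, adjusted p = 0.0204). These were the 2 calls among the 18 genes of the list.

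Antigen-presentation genes made up much of the dendritic-cell list. H2-Aa, H2-Ab1 and H2-Eb1 had 1 higher region each and Cd74, the invariant chain, 2, of 8 higher and 2 lower among the 42 regions of the list. At the H2-Aa promoter the percentiles were 8.02 and 10.4 in labelled WT against 54.7 and 55.0 in labelled Hira KO. H2-Aa RNA was 101 and 64.6 CPM against 25.3 and 37.6, lower where the promoter ranked higher, and did not pass the test (edgeR log2 -1.40, SE 0.28, adjusted p = 0.0631). Ly6c2, a monocyte marker, combined a promoter region at 10.7 and 10.4 against 51.6 and 45.5 with RNA that fell from 90.4 and 48.9 to 21.6 and 17.5 CPM (edgeR log2 -1.83, SE 0.31, adjusted p = 0.0481).

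Erythroid genes had their lower regions at 9 of 21 members. Aqp1 had 4 lower of 9, Car2 3 of 9, and Rhag, Hbb-bs and Nfe2 2 each. Part of these were the 3′ end regions described above, and the region within 10 kb of Nfe2 with the larger difference lay over the 3′ end of its neighbour Hnrnpa1. RNA fell for 1 of the 21 genes, Tspo2, from 8.89 and 13.7 to 2.54 and 2.22 CPM (edgeR log2 -2.24, SE 0.35, adjusted p = 0.0370). The median log2 difference over the list was -1.42.

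Of 35 stem-cell genes 9 rose in RNA and 0 fell by edgeR, among them Hlf, Meis1 and Angpt1, beside 1.32% and 0.48% of all genes. Without labelled WT RNA replicate 1 or 2, edgeR called 3 or 1 genes higher in all. Of their 171 shared regions 12 (7.02%) were higher and 15 (8.77%) lower, near the shares over all shared regions. Meis1 had 2 of 6 regions higher, whereas Hoxa9, a partner of Meis1, rose in RNA with 0 regions higher and 2 of 5 lower.

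Among interferon-stimulated genes RNA of 7 of 27 tested members rose and of 0 fell by edgeR, beside the same shares of all genes. Of their 66 shared regions 2 were higher (3.03%, at Rtp4 and near Ifi27) and 0 lower, and 6 and 4 without labelled WT ATAC replicate 2. Immediate-early genes, which respond to stress and handling within minutes, had 12 of 85 regions higher (14.1%) and 1 lower, and RNA rose for 3 of 25 genes. A site near Fos (chr12:85468553-85469086) had 22.0 and 47.1 against 65.5 and 74.3. Fos RNA spread widely, at 37.1 and 24.3 against 218 and 1109 CPM.

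G2 and mitosis genes had 0 higher and 7 lower of 64 regions (10.9%), 3 of them near Mki67, and S-phase genes 4 higher and 10 lower of 88 (11.4%). HIRA-complex and histone-chaperone genes had 4 higher and 14 lower of 79 (17.7%), 5 of the lower ones at the Hjurp locus. The median percentile differences over the 3 lists were -0.79, -0.025 and -0.0016. A region inside Mcm7, a subunit of the replicative helicase (chr5:138166927-138168079), had percentiles of 83.7 and 91.9 against 26.6 and 53.9. One at Chaf1a, the large subunit of the replication-coupled chaperone CAF-1 (chr17:56045785-56046217), had 36.4 and 48.6 against 4.51 and 6.49.

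**Figure D4:**
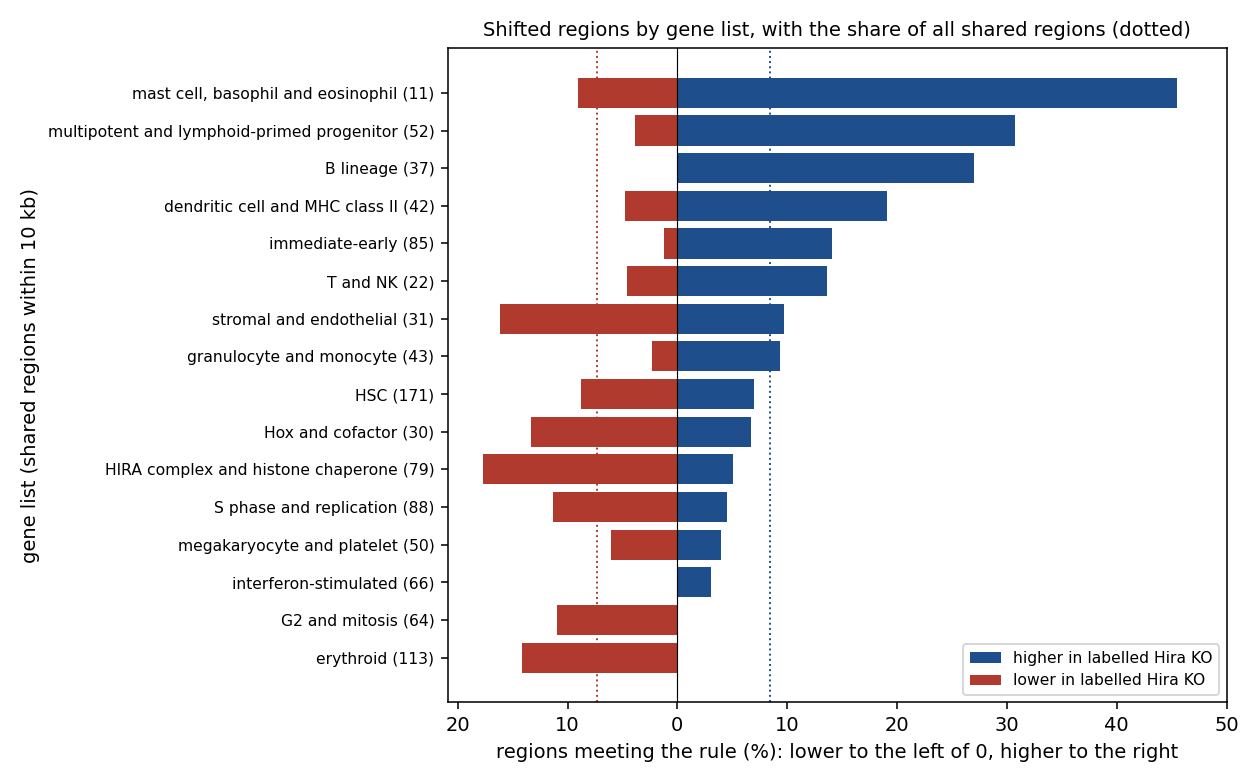
Share of shared regions within 10 kb of each list's genes that were lower (left of 0, red) or higher (right of 0, blue) in labelled Hira KO, with the number of regions in brackets and the shares over all shared regions dotted. Farthest to the right lie the mast cell, basophil and eosinophil (45.5% of 11 regions), lymphoid-primed (30.8%), B-lineage (27.0%) and dendritic-cell (19.0%) lists. The erythroid list has 0 higher and 14.2% lower, and the lower share is larger for the histone-chaperone (17.7%) and the stromal and endothelial (16.1%) lists. The dotted shares are not matched for rank.

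Counts for several lists changed when single libraries were left out. Mast-cell, basophil and eosinophil genes had 5 of 11 regions higher (45.5%) and 1 lower, and 2 higher without labelled Hira KO replicate 1. Without labelled Hira KO replicate 2 the higher counts were 14 for the dendritic-cell list and 21 for the immediate-early list, 9 rather than 4 for granulocyte and monocyte genes, and 19 for stem-cell genes. Leaving out that library also raised the higher count over all shared regions, from 3861 to 5606, so these rises are not particular to the lists. Lymphoid-primed genes had between 13 and 23 higher regions without each library, B-lineage genes 8 to 10, and erythroid genes 17 to 24 lower. In the opposite direction lymphoid-primed genes had 1 to 3 lower, B-lineage genes 0 to 2 lower and erythroid genes 0 to 4 higher. T and NK genes had 3 higher (13.6%) and 1 lower (4.55%) of 22 regions, and megakaryocyte genes 2 (4%) and 3 (6%) of 50. Hox genes and cofactors had 2 (6.67%) and 4 (13.3%) of 30, and stromal and endothelial genes 3 (9.68%) and 5 (16.1%) of 31. Over all shared regions the shares were 8.43% higher and 7.36% lower, and the counts of these 4 lists are small.

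Genes of the stromal and endothelial list moved in RNA beside these shifts. Of the 14 tested 6 fell and 0 rose by edgeR, beside 0.48% and 1.32% of all genes. This list too was chosen with earlier results of these data known, so the count is a description. Tjp1 fell from 58.1 and 68.5 to 8.34 and 5.41 CPM (edgeR log2 -3.20, SE 0.25, adjusted p = 0.00842), and its promoter region had percentiles of 75.2 and 66.6 against 46.1 and 29.4. Stab2, an endothelial scavenger receptor, fell from 17.5 and 16.9 to 2.02 and 4.45 CPM (edgeR log2 -2.42, SE 0.39, adjusted p = 0.0386) while a site in it (chr10:86990613-86991220) was higher, at 10.7 and 4.15 against 49.9 and 55.0. Bulk libraries cannot tell fewer cells of a type from less signal per cell, and the part of other cells in the shifts was not tested.

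Hira itself had 3 shared regions. Its promoter region lay at percentiles of 92.6 and 91.4 in labelled WT against 92.4 and 90.9 in labelled Hira KO. An intragenic region (chr16:18896391-18896955) had 74.0 and 73.7 against 26.6 and 67.8, and a second (chr16:18895265-18895637) 29.8 and 30.03 against 3.22 and 31.8. In both intragenic regions labelled Hira KO replicate 1 was far below the labelled WT pair and replicate 2 close to it.

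On chromosome X 45 of 1077 regions were higher and 122 lower, with median percentiles of 57.4 and 51.5 in labelled WT against 49.0 and 47.1 in labelled Hira KO. On chromosome Y 5 of 30 were lower and 0 higher, with medians of 60.2 and 62.8 against 23.6 and 61.0. All 4 ATAC libraries had peaks on Y (63 to 87 intervals). Among the RNA libraries labelled WT replicate 2 stood apart, with 80.4 CPM of the X-inactivation RNA Xist against 8958 to 12060 CPM in the other 3. The sources used here do not give the sex of the mice, and its part in these shifts was not tested.

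The median RNA difference near higher regions lay above that of genes with no shifted region. Near lower regions it lay only slightly below that of genes with no shifted region, which was itself below 0. The RNA libraries were not used to choose regions, and edgeR called 214 of 16258 genes higher (1.32%) and 78 lower (0.48%). Among the 11826 tested genes within 10 kb of any shared region 135 rose (1.14%) and 71 fell (0.6%). Of 1682 genes near higher regions only 40 rose and 8 fell, with a median log2 difference of 0.10. Of 1637 genes near lower regions only 15 rose and 14 fell, with a median of -0.12, against -0.08 for the 8067 genes with shared regions of which none was shifted. At 2 kb the medians were 0.16 and -0.11, against -0.09 for genes of which no region was shifted. At 50 kb they were 0.00 and -0.10, against -0.07.

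**Figure D5:**
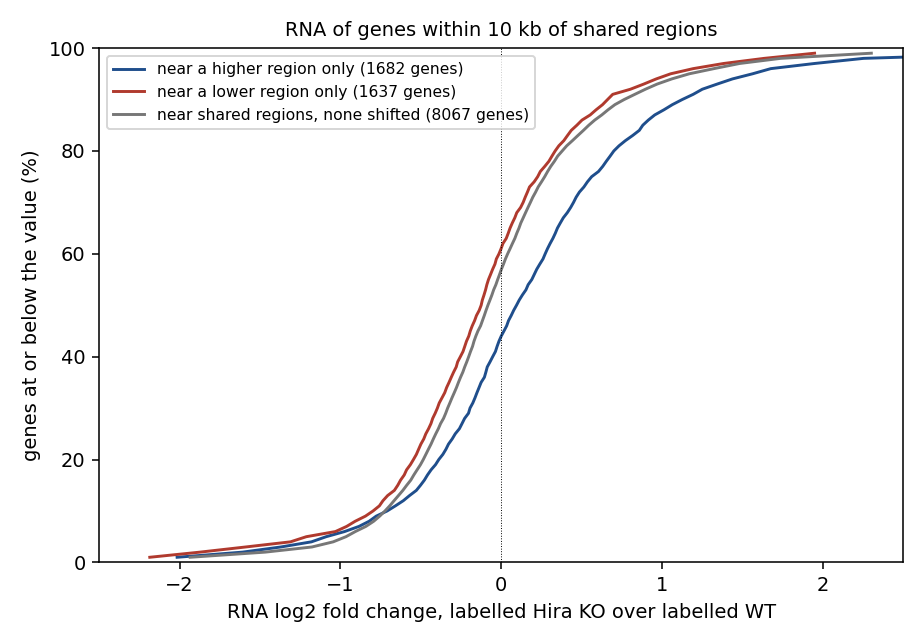
Cumulative share of genes (vertical axis, percent) by RNA log2 difference between labelled Hira KO and labelled WT (horizontal axis), for genes within 10 kb of higher regions only, of lower regions only, and of shared regions none of which was shifted. The curve for higher regions is displaced to the right, with a median of 0.10 against -0.08 for unshifted genes; that for lower regions lies at -0.12.

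The number of edgeR calls near shifted regions depended strongly on which RNA library was left out. Such a fit leaves 1 library in a group, so only its medians are read here. Over the 4 fits without 1 RNA library the medians were 0.06 to 0.14 near higher regions and -0.21 to -0.11 near lower ones. They were -0.14 to -0.07 for genes with shared regions of which none was shifted. DESeq2 called 178 higher (11.3%) and 71 lower (4.49%) near higher regions only, and 69 higher (4.45%) and 109 lower (7.02%) near lower regions only. Of genes with shared regions of which none was shifted it called 4.16% in each direction.

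The genes with the lowest RNA p-values near shifted regions fell on both sides. Sema3d, a secreted guidance molecule, rose from 0.688 and 0.492 to 14.0 and 12.3 CPM (edgeR log2 4.46, SE 0.37, adjusted p = 0.00858), and its higher region had percentiles of 2.07 and 4.15 against 23.7 and 29.4. Zbtb20, a transcriptional repressor, rose from 148 and 128 to 366 and 394 CPM (edgeR log2 1.46, SE 0.15, adjusted p = 0.0167) with 3 of 8 regions higher and 0 lower. Angpt1, the TIE2 ligand made by stem cells, rose from 80.6 and 85.0 to 247 and 290 CPM (edgeR log2 1.70, SE 0.15, adjusted p = 0.0108) with 1 of 10 higher.

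Other genes of this set moved against their regions. Dst, a cytoskeletal linker, rose from 24.1 and 32.7 to 98.2 and 121 CPM (edgeR log2 1.95, SE 0.21, adjusted p = 0.0174) although 3 of its 8 regions were lower and 0 higher. Cdh5, the cadherin of endothelial cells, fell from 7.25 and 6.51 to 0.933 and 0.841 CPM (edgeR log2 -2.94, SE 0.39, adjusted p = 0.0332) while 1 of its 2 regions was higher. Col5a1, a fibrillar collagen, fell from 26.8 and 31.4 to 4.56 and 1.98 CPM (edgeR log2 -3.14, SE 0.39, adjusted p = 0.0307) with 2 of 5 regions lower, in the same direction.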

How the data were processed

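Members and gene lists were chosen with earlier results of these data known; position against gene ends and gene families were added after the values were seen. Each ATAC file was a peak list called per library in narrowPeak layout; GRCm38 and, with no role or order, MACS2 2.1.1, RSEM 1.3.0, STAR 2.5.3a, HTSeq, Bowtie2 2.2.9, DESeq2, bedtools and Trim Galore 0.4.5 are listed in the submitters' processing notes. Column 7 held the authors' fold enrichment per peak, a ratio to the caller's background; the authors' −log10 p-values stood in column 8 and their −log10 q-values in column 9. These values are each peak's own and were used only to rank within a list; ranks by column 8 were the same at all 45779 regions. Per the file headers, the deposited RNA tables give RSEM expected counts for each gene. The transposase offset, the strand setting of the RNA counts and the ATAC read depth are not given in the sources used here, so the precision of the peak values is unknown. The RNA libraries held 16.6 to 19.8 M expected counts.

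Sample titles gave each library its group and its number. Intervals off the mitochondrial genome were made unique and merged at 1 bp overlap. Called width is the summed length of a library's intervals in the merged region. limma 3.58.1 was fitted over all shared regions on normal scores of the percentiles and on log2 widths centred per library, with genotype as the only term. Rounded expected counts were tested with edgeR 4.0.16 (TMM, filterByExpr, quasi-likelihood test) in R 4.3.3, with DESeq2 1.42.0 as an alternative; adjusted p-values are Benjamini-Hochberg, called below 0.05. CPM use the TMM-scaled library size. Genes came from RefSeq tables of GRCm38.p6 (19931 named protein-coding genes); 321 of 323 list symbols matched, and 199 RNA genes were matched by a unique synonym. Strand was known only for genes with a promoter window in those tables, so regions at other promoters count as gene body. A region takes the name of the nearest gene body within 10 kb.

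Regions were named by rule: the 12 autosomal regions within 10 kb of a named protein-coding gene with the largest mean difference in each direction, up to 3 per gene list, all at Hira, those nearest the threshold, the 5 with the largest width change in each direction, and the genes with the lowest edgeR p near shifted regions; 3′ end regions, genes with several shifted regions and list genes given by their RNA beyond these were chosen after their values were seen. The alternatives were a cover of at least 50%, a −log10 q of at least 5, autosomes, column 8, the mean over peaks, thresholds of 10 and 30, other scalings, filters and distances, each library left out, and the replicate block. The merging, limma and edgeR steps were tested on simulated data, where limma on percentiles did not call the shifts put in at these libraries' spread. The largest differences without the condition of a named gene were added after the values were seen.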

Additional observations from a re-analysis of the deposited data

How the results depend on the processing

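With the threshold at 10 in place of 20 there were 6712 higher and 7071 lower regions, and at 30 there were 1506 and 1132. A cover of at least 50% gave 2574 higher regions, 2454 of them among the 3861, and 2150 lower regions, 2122 of them among the 3368. This setting leaves out strongly narrowed or widened regions by construction. Without each ATAC library in turn the lower count ran from 3842 to 5568 and the higher count from 4239 to 5606; the largest lower count, 5568, came without labelled Hira KO replicate 2. limma gave 0 calls for percentiles under each alternative run, which says nothing of stability, since on simulated data this fit did not call the shifts put in. For widths it called 13 narrower regions among peaks with a −log10 q of at least 5, 1 narrower without centring, and 0 to 52 wider and 0 to 142 narrower without each library; the cause was not tested.

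RNA calls moved most. Without the low-count filter edgeR called 1206 genes higher and 1017 lower, and DESeq2 called 923 and 575. Leaving out each RNA library gave 1 to 1657 higher and 1 to 1888 lower. Near higher regions only, the counts higher and lower were 178 and 71 with DESeq2 and 208 and 112 without the filter, and 0 to 288 and 0 to 164 without each library; 16 were lower at 50 kb. Near lower regions only, they were 69 and 109 with DESeq2 and 89 and 187 without the filter, and 0 to 144 and 0 to 326 without each library; 27 were higher at 50 kb and 9 lower at 2 kb. The cause was not tested.

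The replicate numbers are shared between groups, but the labels do not say that they pair the libraries. Deviations of same-numbered libraries correlated at 0.295 for ATAC percentiles, 0.217 for widths and 0.0609 for RNA. With the replicate block limma called 0 regions in either direction for percentiles and for widths, and edgeR called 368 genes higher and 169 lower, with 61 and 25 near higher regions only and 29 and 23 near lower regions only.

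With 2 libraries per group, peak lists without read depth and only regions called in all libraries, a shift that removes a region from a list cannot be seen here, and differences at the lowest ranks are least precise.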
